A study of Arabidopsis thaliana with 3 samples.

Results

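Tetrapyrroles are ring-shaped pigments that plants make in plastids, and chlorophyll, heme, siroheme and the bilin chromophore of phytochrome all belong to them. The genes described here cover this pathway from glutamyl-tRNA reductase to chlorophyll synthase, its heme and bilin branches, the chlorophyll b cycle and the breakdown of chlorophyll, and were taken from a list of 44 loci. All 44 were present in the files, out of 27374 loci in all. They comprise 5 genes of 5-aminolevulinic acid (ALA) synthesis including the regulator FLU, 8 genes of the common trunk up to protoporphyrin IX, 14 genes of the magnesium branch, 7 genes of the heme and bilin branch, and 10 genes of the chlorophyll b cycle and breakdown.

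The values come from 3 RNA-seq libraries of whole wild-type Arabidopsis thaliana seedlings of the accession Col-0, aged 9 days. The seedlings had grown on MS plates at 23 °C in days of 16 h light and 8 h darkness. The libraries form 1 group, replicates 1 to 3, with no mutant or treated sample, and were made from total RNA after removal of ribosomal RNA. The labels used here do not say whether they came from separate cultures or give the hour of harvest. Every SD therefore measures the spread between these libraries, which may be technical. The SE and p-values of the tests use a variance that draws on all loci tested in the same libraries. They are thus not the spread of a single pair of genes.

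As background, ALA is made from glutamate bound to its transfer RNA, and this opening step is the main point of control of the pathway. The trunk leads to protoporphyrin IX, which receives magnesium on the way to chlorophyll or iron on the way to heme. In the light, enzyme amounts are held in balance because free intermediates generate singlet oxygen. In breakdown, chlorophyll b is turned back into chlorophyll a, magnesium is removed, the phytol tail is cut off and the ring is opened.

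Levels are FPKM, fragments counted relative to transcript length and to the size of the library, summed over the transcript forms of a gene. They are set per length, so that levels of different genes can be set side by side. Bias particular to a gene, as from an overlapping gene or a close isozyme, would recur in every library. The SE and p-values of tests between genes do not measure it. Summed over all 36172 transcripts, the FPKM came to 2064650, 2000110 and 1957870 in libraries 1, 2 and 3, and read depth is not stated. The highest single transcript alone had 919855, 909995 and 847986 FPKM in these libraries. Markers of green tissue and of roots were both detected. All 5 green markers and 5 of 6 root markers had at least 1 FPKM in every library, against 64.2% of all nuclear protein-coding genes. Their summed levels were 23479 to 25528 FPKM for green tissue and 981 to 1090 FPKM for roots. The root sum was nearly all PYK10, with a mean of 1009 FPKM. The other root markers had low means, from 1.96 FPKM for IRT1 to 8.28 FPKM for PHT1;1. In such mixed tissue, fewer cells of a type and less RNA per cell cannot be told apart.

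Most of the 44 genes were expressed at high levels. Of the 44, 41 had at least 1 FPKM in every library, against 64.2% of the 26693 nuclear protein-coding genes. A mean above 50 FPKM was reached by 22 of the 44, against 6.51% of those genes. The median over the 44 was 51.6, 48.8 and 49.6 FPKM in libraries 1, 2 and 3, against 3.90, 3.82 and 4.004 FPKM over all nuclear protein-coding genes. Levels spanned the range from 783 ± 44.4 FPKM (SD, n = 3) for CRD1, the cyclase of the magnesium branch, down to the heme oxygenase HO4, listed at 0.151 FPKM in library 1 and at 0 in the others.

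The branches differed in level. The magnesium branch had a median of 113 ± 3.82 FPKM over its 14 genes (SD of the library medians, n = 3), the common trunk 65.5 ± 2.56 FPKM over 8 genes and ALA synthesis 60.5 ± 0.358 FPKM over 5 genes. The breakdown genes had a median of 17.1 ± 0.447 FPKM and the heme and bilin genes 11.3 ± 0.680 FPKM. The order of these medians was the same in each library. With the highest transcript form of each gene in place of the sum, ALA synthesis at 59.3 FPKM lay above the trunk at 57.8 FPKM. The heme and bilin median includes HO3 and HO4, which lay under 1 FPKM, and was 19.2 FPKM without them, above that of breakdown. The summed levels were 3393 ± 124 FPKM in the magnesium branch, 498 ± 20.3 FPKM in the trunk, 351 ± 9.29 FPKM in ALA synthesis, 229.7 ± 2.30 FPKM in breakdown and 137 ± 1.02 FPKM in the heme and bilin branch.

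**Figure D1:**
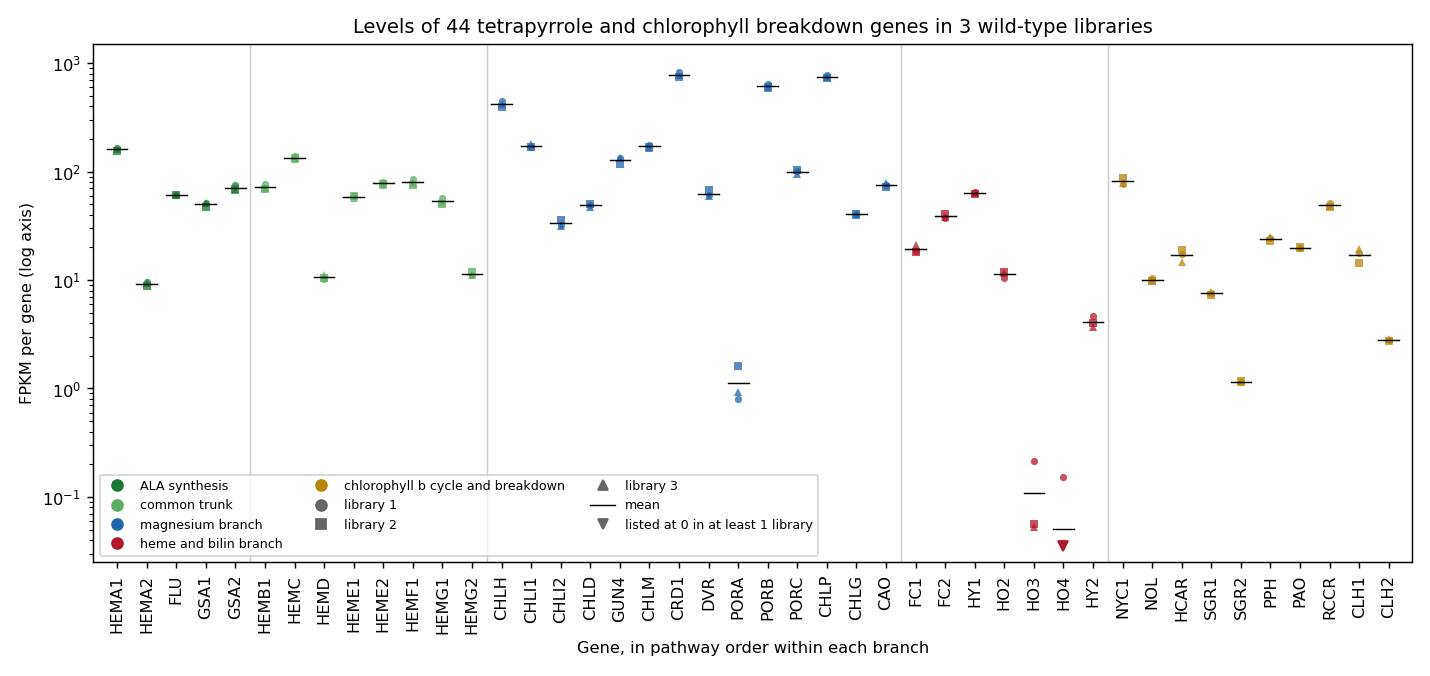
Level of each of the 44 genes in FPKM on a log axis, in pathway order within each branch; points are the 3 libraries, bars the means, and a triangle at the bottom marks a gene listed at 0 in at least 1 library. CRD1, CHLP and PORB stand at the top, with 591 FPKM or more in every library, while PORA, HO3 and HO4 lie lowest and scatter most.

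In ALA synthesis, HEMA1 (AT1G58290) carried most of the glutamyl-tRNA reductase transcript. HEMA2 (AT1G09940) had 9.63, 8.75 and 9.35 FPKM in libraries 1, 2 and 3, against 164, 156 and 162 FPKM for HEMA1, and the ranges lay far apart. HEMA1 thus held 94.5 ± 0.0390% of the summed level of HEMA2, HEMA3 and HEMA1. The difference of HEMA2 from HEMA1 was -3.98 on the log2(FPKM + 1) scale (SE 0.0477, limma adjusted p = 1.8e-11), negative in 3 of 3 libraries. Against all reference genes together, 97.5% of all loci tested passed the same limma test. A passed test here thus says little beyond the direction of the difference in FPKM.

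GSA1 (AT5G63570) and GSA2 (AT3G48730) encode glutamate-1-semialdehyde aminotransferase, which makes ALA. GSA2 had 74.7, 69.1 and 67.8 FPKM, against 51.5, 47.3 and 51.3 FPKM for GSA1. GSA2 was higher in each library, by 0.49 on the log2 scale (SE 0.0505, limma adjusted p = 1.5e-06), and held 58.5 ± 1.36% of the pair. FLU (AT3G14110), a membrane protein that represses glutamyl-tRNA reductase, had 60.1, 60.4 and 60.8 FPKM, against the values of HEMA1 given above. Its difference from HEMA1 was -1.40 (SE 0.0381, limma adjusted p = 1.1e-09). FLU had the smallest coefficient of variation of the 44, at 0.592%.

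Some isozymes of this pathway are close in sequence, which bears on how far their reads can be told apart, whereas blastn aligned no coding bases between HEMG2 and HEMG1, HO2 and HY1, or NOL and NYC1. Over their coding sequences in RefSeq TAIR10.1, HEMA2 was 80.2% identical to HEMA1, GSA2 83.2% to GSA1, CHLI2 (AT5G45930) 80.9% to CHLI1 (AT4G18480) and PORA (AT5G54190) 82.5% to PORB (AT4G27440). The closest stretches of 60 coding bases are shown here, 5′ to 3′ on the coding strand, with the bases that differ within a pair in capitals.
HEMA2: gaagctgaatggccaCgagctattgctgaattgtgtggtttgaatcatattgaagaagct
HEMA1: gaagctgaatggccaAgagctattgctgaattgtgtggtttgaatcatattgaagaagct
CHLI2: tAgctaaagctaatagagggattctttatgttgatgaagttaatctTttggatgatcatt
CHLI1: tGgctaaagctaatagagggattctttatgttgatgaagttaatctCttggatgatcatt
PORA: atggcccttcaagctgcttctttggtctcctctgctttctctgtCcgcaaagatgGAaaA
PORB: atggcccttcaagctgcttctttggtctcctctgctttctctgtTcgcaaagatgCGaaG
These stretches hold 1, 2 and 4 differences within the HEMA, CHLI and POR pairs. The longest identical coding runs were 49, 44 and 44 bases. The printed stretches are at the start of the coding sequence in PORA and PORB, at coding bases 328 to 387 of HEMA2 and 355 to 414 of HEMA1, and at 623 to 682 of CHLI2 and 641 to 700 of CHLI1. Taken over their whole length, no blastn alignments of at least 50 bases between the mRNAs of these 6 genes and other genes reached 90% identity, although the shorter stretches shown do. Of all 44 mRNAs, 3 had such an alignment: HEMF1 (AT1G03475), over 5.16% of its length with HEMF2, HEMG2 (AT5G14220), over 8.11% with the overlapping AT5G14210, and RCCR (AT4G37000), over 11.1% with the overlapping AT4G37010.

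In the common trunk, the summed level of a step lay between 64.5 and 136 FPKM at every step except that of HEMD (AT2G26540). HEMB1 (AT1G69740), the ALA dehydratase, had 77.4, 69.6 and 70.5 FPKM, and HEMC (AT5G08280), the porphobilinogen deaminase, 140.2, 133 and 129.8 FPKM. HEMD, the uroporphyrinogen III synthase that closes the ring, had 10.2, 10.4 and 11.2 FPKM, the lowest summed level of any step of the trunk. The pair of uroporphyrinogen III decarboxylase genes together had 136 ± 4.01 FPKM and the pair of protoporphyrinogen oxidases 64.5 ± 2.95 FPKM. Coproporphyrinogen III oxidase had 79.5 ± 5.07 FPKM, which is HEMF1 alone, without HEMF2, a gene outside the list.

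HEME1 (AT3G14930) and HEME2 (AT2G40490), the decarboxylases, differed little when transcript forms were summed. HEME1 had 59.5, 59.5 and 56.6 FPKM, against 80.7, 76.9 and 75.6 FPKM for HEME2. HEME1 was lower in each library, by a difference of -0.40 (SE 0.0409, limma adjusted p = 1.2e-05). With the highest form only, HEME1 was at 36.2 FPKM and the difference was -1.08. The siroheme branch leaves the trunk at the same substrate: UPM1, its methyltransferase, had 29.6, 29.8 and 30.6 FPKM, a difference from HEME2 of -1.35 (SE 0.0476).

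The oxidases of the trunk each had a major and a minor gene. HEMF2, which is annotated as a second coproporphyrinogen oxidase gene and has a coding sequence of 723 bases against 1161 in HEMF1, had 10.7, 11.4 and 11.5 FPKM. HEMF1 (LIN2 in the gene table) had 85.1, 75.2 and 78.2 FPKM, and held 87.6 ± 1.04% of the pair. HEMG2, a protoporphyrinogen oxidase, had 11.2, 11.8 and 11.2 FPKM, against 56.7, 50.7 and 51.9 FPKM for HEMG1 (AT4G01690). The ratio of HEMG2 to HEMG1 was 0.215 ± 0.0177 (SD, n = 3).

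The magnesium branch held the most abundant transcripts of the 44 genes, at 3 steps. CRD1 (AT3G56940), a subunit of the cyclase that closes the fifth ring, had 832, 745 and 773 FPKM. CHLP (AT1G74470), the geranylgeranyl reductase that supplies phytol, had 778, 736 and 739 FPKM, and its range overlapped that of CRD1 although CRD1 was the higher in each library. PORB, a light-dependent protochlorophyllide oxidoreductase, had 642, 607 and 591 FPKM. The percentile ranks of CRD1, CHLP and PORB among nuclear protein-coding genes were 99.7, 99.7 and 99.6.

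The subunits of Mg-chelatase, the enzyme that inserts magnesium, were present in unequal amounts of transcript. CHLH (AT5G13630), the subunit that binds the porphyrin (GUN5 in the gene table), had 443, 390.3 and 415 FPKM, against 169.6, 169 and 178 FPKM for CHLI1, an ATPase subunit. CHLD (AT1G08520), which joins both in the complex, had 48.8, 50.3 and 47.5 FPKM. CHLH exceeded CHLI1 by 1.27 on the log2 scale (SE 0.0574) and CHLD differed from it by -1.79 (SE 0.0501), the adjusted p from limma being 4.3e-09 for CHLH and 6.3e-11 for CHLD. CHLI2, the second gene of subunit I, had 32.3, 35.7 and 31.7 FPKM, and held 16.2 ± 1.17% of the CHLI pair.

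GUN4 (AT3G59400), a porphyrin-binding protein that activates the chelatase, had 134, 116 and 132 FPKM, which was 0.306 ± 0.0106 of the level of CHLH (SD of the ratio, n = 3). CHLM (AT4G25080), the methyltransferase that follows, had 176, 168 and 166 FPKM, and its range overlapped that of CHLI1. With the highest form only, CHLM was at 77.3 FPKM, against 172 FPKM for CHLI1. DVR (AT5G18660, PCB2 in the gene table), which reduces a vinyl group, had 61.3, 66.9 and 58.9 FPKM.

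The gene of the last step of synthesis was lower than most of the branch. CHLG (AT3G51820), the chlorophyll synthase that attaches phytol, had 40.6, 40.9 and 39.3 FPKM. CAO (AT1G44446), the oxygenase that makes chlorophyllide b, had 74.7, 71.6 and 78.2 FPKM, higher than CHLG in each library by 0.88 on the log2 scale (SE 0.0473, limma adjusted p = 3.5e-07). The summed transcript of the oxidoreductases upstream was 714 ± 28.9 FPKM.

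The 3 protochlorophyllide oxidoreductases spanned almost the whole range of the pathway. PORA had 0.797, 1.62 and 0.927 FPKM and PORC (AT1G03630) 101, 103 and 94.6 FPKM, against the values of PORB given above. Their differences from PORB were -8.20 (SE 0.130) and -2.61 (SE 0.0466), negative in 3 of 3 libraries each. PORB held 85.9 ± 0.543%, PORC 13.96 ± 0.480% and PORA 0.156 ± 0.0627% of their sum. PORA is known as a form of dark-grown seedlings and PORC as a form of green tissue. Of the 42 genes whose mean reached 1 FPKM, PORA varied most between libraries, with a value in library 2 that was 2.03 times that in library 1, and its mean was 0.862 FPKM without replicate 2, under the filter.

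**Figure D2:**
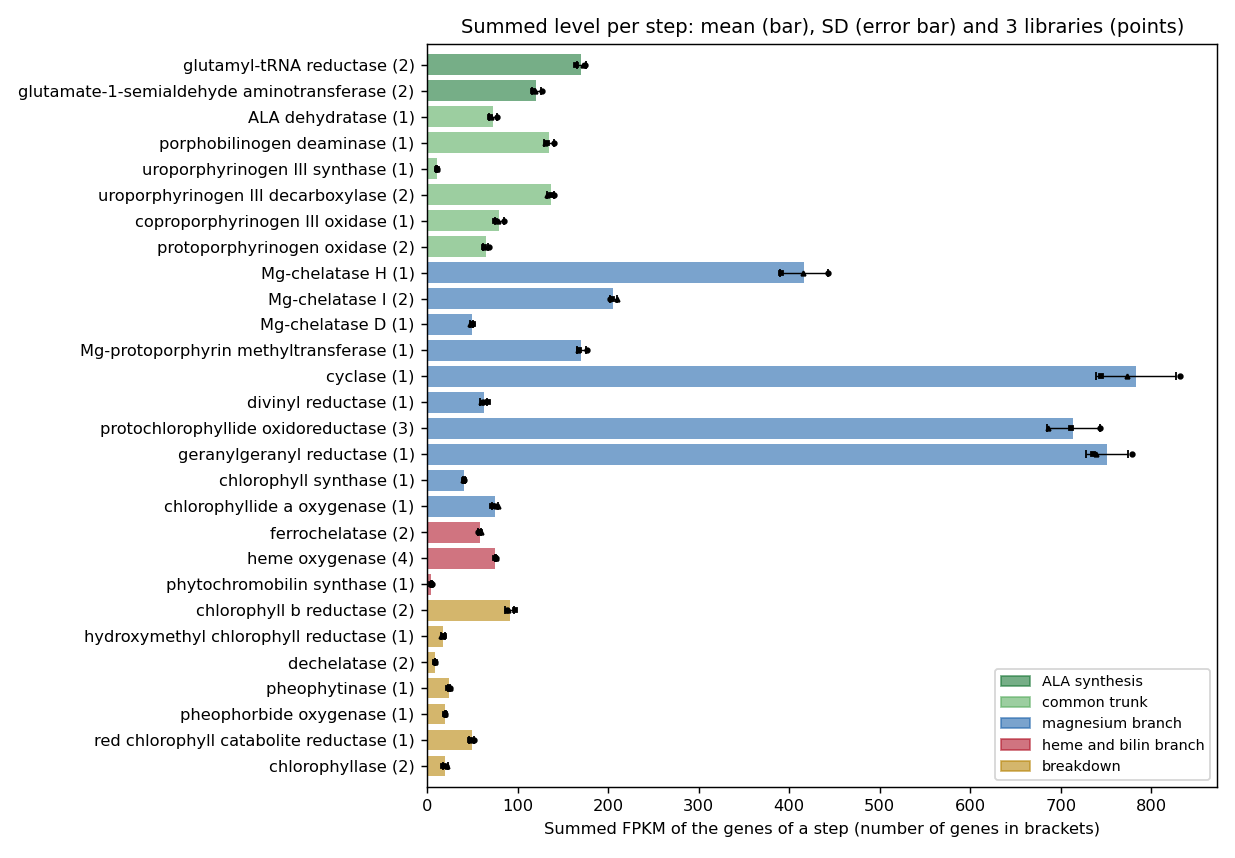
Summed FPKM of the genes of each enzymatic step, in pathway order; bars are means, error bars the SD, points the 3 libraries, and numbers in brackets the genes summed. The cyclase, the protochlorophyllide oxidoreductases and geranylgeranyl reductase had 686 FPKM or more in every library. Uroporphyrinogen III synthase, the dechelatases (SGR1 and SGR2, without SGRL) and phytochromobilin synthase lie lowest in their branches.

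Sequence upstream of 4 genes, chosen after the motifs were found, is shown because they hold motifs that are known from light- and clock-regulated promoters. CRD1 and CAO hold the G-box CACGTG. PORB and PORA, whose levels lie furthest apart among isozymes tested, both hold the evening element AAAATATCT. Each run ends at the base before the annotated gene start in RefSeq TAIR10.1, reads 5′ to 3′ on the strand of the gene, and was cut back where it entered a neighbouring gene. Capitals mark the G-box, the evening element and the I-box core GATAAG or its complement CTTATC.
CRD1: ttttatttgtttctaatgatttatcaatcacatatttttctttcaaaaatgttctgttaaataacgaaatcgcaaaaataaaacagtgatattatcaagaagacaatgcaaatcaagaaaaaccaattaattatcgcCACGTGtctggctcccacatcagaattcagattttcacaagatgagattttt
CAO: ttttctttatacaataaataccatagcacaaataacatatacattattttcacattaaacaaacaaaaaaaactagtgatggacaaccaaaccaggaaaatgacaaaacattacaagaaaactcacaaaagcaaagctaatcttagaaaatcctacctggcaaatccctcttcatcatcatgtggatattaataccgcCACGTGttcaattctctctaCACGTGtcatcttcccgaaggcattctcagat
PORA: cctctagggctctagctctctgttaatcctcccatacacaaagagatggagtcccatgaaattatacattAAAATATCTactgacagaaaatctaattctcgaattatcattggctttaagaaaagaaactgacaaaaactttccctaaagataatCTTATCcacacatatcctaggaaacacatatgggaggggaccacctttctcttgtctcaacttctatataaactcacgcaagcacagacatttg
PORB: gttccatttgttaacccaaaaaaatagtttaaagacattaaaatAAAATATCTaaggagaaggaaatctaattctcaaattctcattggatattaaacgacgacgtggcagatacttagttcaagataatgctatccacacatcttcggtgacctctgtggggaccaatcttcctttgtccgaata
The runs are chr3:21076316-21076504 on the plus strand for CRD1, chr1:16851272-16851521 on the minus strand for CAO, chr5:21992815-21993064 on the minus strand for PORA and chr4:13725360-13725545 on the plus strand for PORB. The G-box of CRD1 and the more distant of the 2 in CAO both start 52 bases upstream of the gene. The evening element starts 180 bases upstream in PORA and 142 bases upstream in PORB. A run of 13 bases, aaatctaattctc, follows it in both genes, from 162 bases upstream in PORA and 123 bases upstream in PORB.

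Over windows of 250 bases upstream, with both strands searched, the G-box was in 7 of 44 genes (15.9%), against 6.57% of 26692 protein-coding promoters. Those 7 were HEMD, CRD1, CAO, FC2 (AT2G30390), HY2 (AT3G09150), NOL (AT5G04900) and SGR2 (AT4G11910). Of them 2 lay above 50 FPKM and 5 at or below it. The evening element was in PORA, PORB and NYC1 (AT4G13250), 3 of 44 genes (6.82%), against 2.39% of promoters. The I-box core was in 4 of 44 (9.09%), against 12.2%, and GATTCT, part of a motif reported for GLK factors, in 7 of 44 (15.9%), against 15.9%. CCAATC was in 3 of 44 (6.82%), against 10.15%, and TATAAA in 21 of 44 (47.7%), against 47.7%. Such matches are letters in a window and show no binding.

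At the branch point, both ferrochelatases were far below CHLH, the porphyrin-binding subunit of Mg-chelatase, while the ferrochelatase sum of 57.8 ± 1.70 FPKM was above CHLD at 48.9 ± 1.44 FPKM (SD, n = 3 each). FC2, a ferrochelatase, had 37.4, 40.4 and 38.1 FPKM, which was 0.0932 ± 0.00970 of the level of CHLH (SD of the ratio, n = 3). The difference of FC2 from CHLH was -3.39 on the log2 scale (SE 0.0673), negative in 3 of 3 libraries. FC1 (AT5G26030), the other ferrochelatase, had 18.5, 18.3 and 20.8 FPKM, and held 33.2 ± 2.11% of the pair. The difference of FC1 from FC2 was -0.97 (SE 0.0695, limma adjusted p = 2.2e-09). FC1 overlaps an annotated miRNA gene, AT5G26038, on the same strand, so part of its reads cannot be assigned with certainty.

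Among the heme oxygenases, which open heme to biliverdin, HY1 (AT2G26670, TED4 in the gene table) led with 64.5, 62.6 and 63.9 FPKM. HO2 (AT2G26550), a related protein that lacks the heme ligand, had 10.5, 11.9 and 11.5 FPKM. HO3 (AT1G69720) was listed at 0.216, 0.0562 and 0.0524 FPKM, and HO4 (AT1G58300) at 0.151 in library 1 and at 0 in libraries 2 and 3. HY1 held 84.8 ± 0.766% of their sum. HO3 and HO4 lay under the 1 FPKM filter and were not tested. HY2, which turns biliverdin into phytochromobilin, had 4.70, 3.98 and 3.69 FPKM, a ratio to HY1 of 0.0647 ± 0.00758 (SD, n = 3).

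HO3 and HO4 are related to HY1 in sequence, with 83.6% identity over 80.8% and 79.5% over 76.9% of their coding sequence. The closest stretch of 60 coding bases of HO3 and HY1 is given because HO3 and HO4 are low and HY1 is high. The bases that differ are in capitals.
HO3: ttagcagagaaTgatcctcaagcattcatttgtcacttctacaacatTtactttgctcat
HY1: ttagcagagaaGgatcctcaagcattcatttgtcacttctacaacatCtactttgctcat
It holds 2 differences, and the longest identical coding run was 35 bases for HO3 and 42 bases for HO4. How many reads were placed wrongly was not tested.

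HO2 and HO4 each lie next to a gene of the trunk or of ALA synthesis on the same strand, and HO3 lies near one. HO4 (chr1:21627758-21630118) and HEMA1 (chr1:21623700-21626402) are 1355 bases apart in RefSeq TAIR10.1. HO3 (chr1:26226731-26228580) and HEMB1 (chr1:26231620-26235043) are 3039 bases apart, with AT1G69730 in the gap, which overlaps HO3 on the other strand and reaches into the 250 bases upstream of HEMB1. HO2 (chr2:11291148-11293575) and HEMD (chr2:11287308-11290361) are 786 bases apart. The neighbours differed widely in level in the HO4 and HEMA1 pair and in the HO3 and HEMB1 pair, where HO4 and HO3 did not exceed 0.216 FPKM in any library. HO2 and HEMD were close, at 11.3 ± 0.680 and 10.6 ± 0.520 FPKM (SD, n = 3 each), and their ranges overlapped.

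Chlorophyll b is returned to chlorophyll a by NYC1 and NOL, which reduce it to the hydroxymethyl form, and by HCAR (AT1G04620), which completes the step. NOL had 10.5, 9.88 and 9.73 FPKM and HCAR 17.4, 18.96 and 14.8 FPKM, against 77.5, 86.9 and 79.1 FPKM for NYC1. NYC1 was above both in each library, and NOL and HCAR differed from it by -2.90 (SE 0.0899) and -2.19 (SE 0.0889) on the log2 scale. NYC1 was the highest of the 10 breakdown genes and the only one with a mean above 50 FPKM. Its level was close to that of HEMF1 and HEME2, neighbours in the order of the 44 whose ranges overlapped.

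Among the 44, the genes of magnesium removal, SGR1 and SGR2, were low. SGR2, a homologue of the Mg-dechelatase STAY-GREEN, had 1.14, 1.18 and 1.15 FPKM, against 7.66, 7.33 and 7.78 FPKM for SGR1 (AT4G22920, NYE1 in the gene table). SGR2 was at 0.152 ± 0.00750 of SGR1 (SD of the ratio, n = 3). SGRL, a further relative outside the list of 44, had 31.5, 29.6 and 30.3 FPKM and exceeded SGR1 by 1.87 on the log2 scale (SE 0.0413, limma adjusted p = 7.5e-10). It held 77.7 ± 0.480% of the sum of SGR1, SGR2 and SGRL. The low SGR2 values varied little between libraries, with a coefficient of variation of 1.95%.

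Further along the route, PPH (AT5G13800), which cuts phytol from pheophytin, had 24.6, 22.8 and 24.7 FPKM. PAO (AT3G44880, ACD1 in the gene table), the oxygenase that opens the ring, had 19.9, 20.03 and 19.5 FPKM, lower than PPH in each library, with a difference of -0.26 on the log2 scale (SE 0.0530, limma adjusted p = 0.00064). This pair did not keep its direction when the highest transcript form of each gene replaced the sum, where the difference was 0.0530 (limma adjusted p = 0.40). RCCR (ACD2 in the gene table), which reduces the opened ring, had 51.7, 47.03 and 47.96 FPKM and exceeded PAO by 1.26 (SE 0.0430, limma adjusted p = 4.5e-08). PAO and RCCR each overlap another gene on the same strand.

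The chlorophyllases CLH1 (AT1G19670) and CLH2 (AT5G43860), which cleave phytol from chlorophyll but are not needed for breakdown in ageing leaves, were unequal. CLH2 had 2.78, 2.72 and 2.85 FPKM, against 17.6, 14.3 and 19.4 FPKM for CLH1. CLH1 held 85.9 ± 1.65% of the pair. CLH1 had a coefficient of variation of 15.2%, above that of the other breakdown genes, while that of CLH2 was 2.30%.

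Of 6 genes known from leaf senescence, 4 had at least 1 FPKM in every library. This is near the share over all nuclear protein-coding genes, 64.2%. SAG12, a protease of late senescence, was listed at 0 in all 3 libraries, and SAG13 had 0.139, 0.217 and 0.411 FPKM. The transcription factors ORE1, NAP and WRKY53 had 6.35 ± 0.936, 10.9 ± 1.63 and 3.31 ± 0.649 FPKM. SEN1, which also responds to darkness and sugar, had 139 ± 11.7 FPKM. The relation of these genes to the levels of the breakdown genes was not tested.

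**Figure D3:**
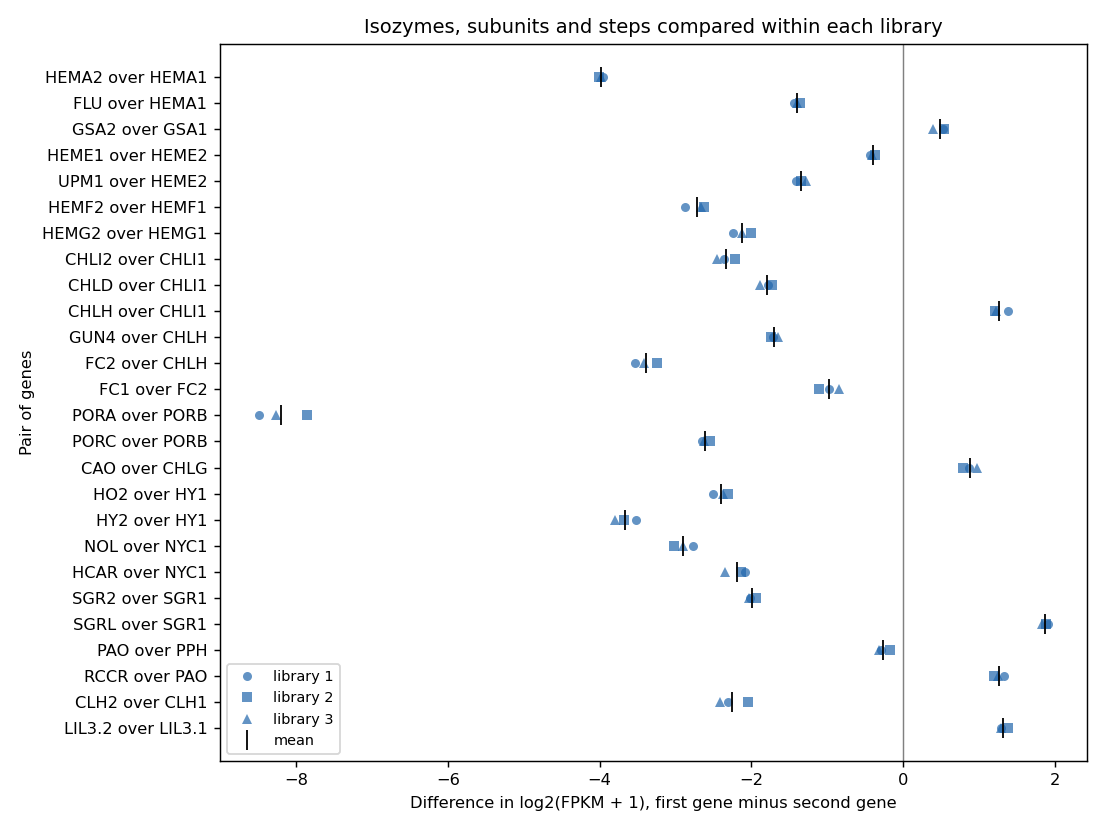
Difference in log2(FPKM + 1) between the genes of each of the 26 pairs tested, first-named gene minus second, in each of the 3 libraries (points) with the mean (bar). In every pair all 3 libraries lie on the same side of 0, from -8.20 for PORA over PORB to 1.87 for SGRL over SGR1.

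In all, 30 pairs were listed and 26 were tested, since HEMA3, HEMB2, HO3 and HO4 had means under 1 FPKM. All 26 passed, 20 with the first-named gene lower and 6 with it higher. The limma adjusted p ran from 0.00064 for PAO over PPH to 4.4e-224 for NOL over NYC1. Values that small rest on the variance drawn from all loci, and 3 libraries alone cannot give them. For single reference genes the share of all loci that passed ran from 88.1% for CLH1 to 99.9% for PORB. Between neighbours in the order of the 44 levels, the ranges of the 3 libraries overlapped in 23 of 43 cases. GSA1, RCCR and CHLD, for instance, had means of 50.01, 48.9 and 48.9 FPKM and could not be ordered.

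Of 20 further genes of the pathway, 18 had at least 1 FPKM in every library, against 64.2% of all nuclear protein-coding genes. The median of the 20 was 20.3 FPKM. LIL3.2 and LIL3.1, membrane proteins that hold geranylgeranyl reductase, had 148 ± 7.80 and 58.8 ± 1.40 FPKM, LIL3.2 being higher in each library by 1.32 on the log2 scale (SE 0.0401). YCF54, which the cyclase needs, had 81.8 ± 3.70 FPKM, far below CRD1. BCM1, which favours synthesis over breakdown of chlorophyll, had 65.98 ± 3.87 FPKM, and TIC55, which hydroxylates a breakdown product, 51.4 ± 3.46 FPKM.

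GBP, which protects glutamyl-tRNA reductase, had 36.7 ± 3.102 FPKM, and GluRS, the plastid synthetase that charges glutamate, 23.1 ± 0.491 FPKM. The phytol kinase VTE5 and the farnesol kinase FOLK had 15.6 ± 1.72 and 18.3 ± 1.14 FPKM. CYP89A9, a cytochrome P450 that acts on breakdown products, had 22.4 ± 2.68 FPKM, and SIRB, the siroheme ferrochelatase, 11.3 ± 0.900 FPKM. PES1 had 7.91 ± 0.618 FPKM, HEMN1 2.30 ± 0.226, TSPO 1.78 ± 0.383 and PES2 1.51 ± 0.223 FPKM. HEMA3 was listed at 0 in library 1 and at 0.353 and 0.264 FPKM in libraries 2 and 3, and HEMB2 averaged 0.0486 ± 0.00169 FPKM.

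Transcript forms were listed singly for 24 of the 44 genes and as several forms for 20. Of the 20, 19 had a mean of at least 1 FPKM, and in 13 of these a single form held over 90% of the level. CHLM was the most divided, with form 2 at 45.4 ± 2.47%, form 3 at 26.04 ± 2.56% and form 1 at 24.8 ± 0.973% (SD, n = 3). In HEME1, form 1 held 61.8 ± 2.06% and form 2 33.2 ± 1.32%. Form 1 held 79.03 ± 1.78% in CAO, 79.5 ± 0.946% in PPH and 86.4 ± 1.07% in HEMB1. HY2 and HO2 were led by form 2, at 79.7 ± 4.40% and 97.3 ± 2.72%. Forms of a gene share most exons, so their split is an estimate of the authors' software.

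**Figure D4:**
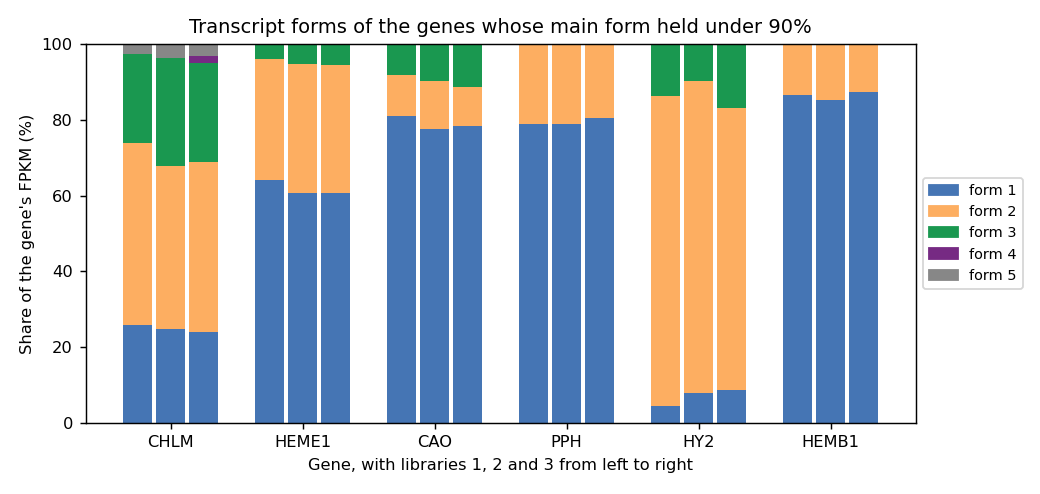
Share of each transcript form in the FPKM of the 6 genes whose main form held under 90%, in percent, with 1 stacked bar for each of libraries 1, 2 and 3. The split was similar in the 3 libraries, with form 2 leading in CHLM and HY2 and form 1 in HEME1, CAO, PPH and HEMB1.

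Between libraries the genes were steady. None of the 42 genes whose mean reached 1 FPKM had a highest library more than 1.5-fold above its lowest on the log2(FPKM + 1) scale, against 2.97% of all 17868 loci at that level. With a pseudocount of 0.1 in place of 1, 1 gene passed that bound, PORA. The median span between libraries was 0.12 on the log2 scale for the 42 genes and 0.16 for all loci. Variation depends on level, and among loci between 17.1 and 80.7 FPKM, the quartiles of the 42 genes, it was 0.13 for 4241 loci and 0.12 for the 20 genes in that range. Library 1 was the highest of the 3 for 19 of the 42 genes (45.2%, against 34.8% of all loci), library 2 for 14 (33.3%, against 26.2%) and library 3 for 9 (21.4%, against 39.1%).

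The 44 genes lie on all 5 chromosomes, 12 on chromosome 1, 5 on chromosome 2, 8 each on chromosomes 3 and 4, and 11 on chromosome 5. Their longest coding sequences run from 798 bases in GUN4, which has 1 exon, to 4146 bases in CHLH, and HCAR has the most exons, 19. An annotated gene on the same strand overlaps 6 of them (HEME1, HEMG2, CHLD, FC1, PAO and RCCR), and one on the other strand 16. The libraries were strand-specific, but whether strand was used in the FPKM is not given in the sources used here, so values of these genes may hold reads of their neighbours.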

How the data were processed

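RNA of whole Col-0 seedlings was measured in 3 libraries that the labels number as replicates of 1 group. Per the labels' protocols, ribosomal RNA was removed and strand-specific libraries were sequenced. The deposited files hold 1 value per transcript, read here as FPKM computed by the authors. The submitters' processing notes list TopHat2 2.0.9, Cufflinks 2.1.1 and the build TAIR10, and the values are neither whole nor sum to a fixed total. Which annotation, filters or scaling the authors used is not stated. Of 36172 transcripts, 35337 carried a locus and were summed into 27374 loci.

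Genes were compared with limma 3.58.1 (R 4.3.3) on log2(FPKM + 1): for each of 18 reference genes, the within-library difference of every locus with a mean of at least 1 FPKM (17868 loci), an intercept model with a trended empirical Bayes variance, a two-sided test and Benjamini-Hochberg adjustment over all loci, with 0.05 as the threshold. The pseudocount shrinks differences that involve low genes. Tests against 1 reference share its noise, so small p-values say little beyond direction. The test was run beforehand on simulated data, against HEMA1 only and with noise drawn separately for each gene. That run cannot show how the test behaves with noise shared within a library, and its outcome is not given here. Branches, variation and transcript forms were described without a test. The members, lists and pairs were chosen with earlier results of these data known. Genes named were the 44 members and those of the fixed lists.

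Depth is not stated. In 1846 loci with 1 transcript and a mean under 0.5 FPKM, 66.0% to 70.04% of ratios between libraries lay within 1% of a ratio of small whole numbers after 1 scaling per pair of libraries, where a typical other scaling gave 7.96% to 8.94%. Low values are therefore steps of a few fragments, and whole reads were not recovered. Values listed as 0 can be failed estimates.

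Gene positions, coding sequences and upstream windows of 250 bases came from RefSeq TAIR10.1, matched by locus (44 of 44). The build of the files is named TAIR10, and the files hold no coordinates. Gene starts in that annotation set the windows. Sequences were compared with blastn (BLAST 2.17.0). Alternatives comprised a pseudocount of 0.1, no filter, a minimum of 5 FPKM, a 2-fold bound between libraries, the added variances of both genes, the highest transcript form, scaling to one nuclear sum, joint adjustment and leaving out each replicate.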

Additional observations from a re-analysis of the deposited data

How the results depend on the processing

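No paired analysis was possible because the series has 1 group, and the within-library differences already keep each library together. Of 233 values of the 26 pairs under the alternatives, 232 kept direction and side of the threshold. The exception was PAO against PPH, at 0.0530 with the highest transcript form, since 20.5% of PPH lies in its second form. The alternatives reuse the same 3 libraries, and 97.5% of all loci tested passed against all reference genes together. Keeping the side of the threshold was therefore likely beforehand. The number of pairs passing was 25 with the highest form, 25 to 26 when a replicate was left out, PORA falling under the filter without replicate 2, and 30 with no filter. With the highest form, median levels were 59.3 FPKM in ALA synthesis, 57.8 in the trunk and 86.8 in the magnesium branch, which turned the order of ALA synthesis and the trunk. With members of at least 1 FPKM only, that of the heme and bilin branch was 19.2. With a pseudocount of 0.1, 1 gene, PORA, passed the 1.5-fold bound between libraries. The level of 2 genes, CHLM and HEME1, moved by more than 1.5 times with the highest form, and that of 2, HO3 and HO4, without replicate 1. Low genes rest on few fragments, and the depth behind them is unknown.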
